A study of Mus musculus with 9 samples.

Results

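The liver takes up drugs, bile acids and hormones from portal blood and releases them into bile or back into blood through a small set of membrane carriers, and 9 of these genes were read in the livers of mice with chronic colitis given indirubin. The genes were taken from the table by symbol: the organic anion uptake carriers Slco1b2, Slco1a1, Slco1a4 and Slco2b1, and the export carriers Abcc2, Abcg2, Abcb1a, Slc47a1 and Abcc3. All 9 were found among the 56748 genes of the count table. Bulk RNA sequencing was done on total RNA of whole liver from 9 C57BL/6J mice (C57BL/6 in the sample labels) bought at 7 to 8 weeks of age, 3 mice in each of 3 groups. The DSS group had 3 cycles of dextran sulfate sodium (DSS), a salt that injures the colon, at 1.8% (w/v) in the drinking water for a week, each followed by a week without it, and 200 µL of sterile water by mouth each day. The Indirubin group had the same DSS cycles and 1 g/kg of indirubin, an indigoid pigment of the herbal medicine indigo naturalis, each day in 200 µL of water. The Control group is labelled with water as its only treatment, whereas the deposited design text describes DSS colitis before it divides the animals into groups, and whether Control animals drank DSS is therefore unsettled. No genotype, transgene or Cre differed between the groups, and each numbered library is taken as 1 mouse.

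Carriers of the Slco family (organic anion transporting polypeptides) sit in the blood-facing membrane of hepatocytes and bring in bile acids, bilirubin conjugates, thyroid hormones, steroid sulfates and many drugs. Export into bile is driven by ATP-binding cassette pumps in the canalicular membrane and, for organic cations, by the proton exchanger encoded by Slc47a1, while Abcc3 returns glucuronides from the hepatocyte to the blood. Transcription of these genes is known to be set by the nuclear receptors CAR, PXR and FXR, by the hepatocyte factors HNF1 and HNF4, by the aryl hydrocarbon receptor (AhR) and Nrf2, and, for Slco1a1, by sex and growth hormone.

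In the GRCm39 coordinates of the count table, 3 of the uptake genes lie side by side on chromosome 6. Slco1b2 (ENSMUSG00000030236) occupies chr6:141575244-141632372 on the plus strand, Slco1a4 (ENSMUSG00000030237) chr6:141751166-141801925 on the minus strand and Slco1a1 (ENSMUSG00000041698) chr6:141853008-141892688 on the minus strand, with 118.8 kb between the first pair and 51.1 kb between the second. Slco2b1 (ENSMUSG00000030737) is at chr7:99307011-99360547. The biliary pumps Abcc2 (ENSMUSG00000025194), Abcg2 (ENSMUSG00000029802) and Abcb1a (ENSMUSG00000040584) are at chr19:43770631-43829179, chr6:58561508-58672661 and chr5:8710077-8798575. Abcc3 (ENSMUSG00000020865) and Slc47a1 (ENSMUSG00000010122) are both on chromosome 11, at chr11:94234121-94283823 and chr11:61234227-61269171. Each is annotated as protein coding, and counts were summed over the whole gene.

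RefSeq promoter entries (GRCm38.p6, a different build from that of the counts) were matched for 7 of the 9 genes, in 11 entries, since Slco2b1 and Abcg2 have several start sites. The 250 bases before the start are shown for Slco1a1 and Slco1b2, the genes with the clearest differences between groups, and for Abcc2, the most even gene, each 5′ to 3′ on its own strand. They come from chr6:141946963-141947212 (minus strand), chr6:141629268-141629517 (plus strand) and chr19:43782058-43782307 (plus strand). Capitals mark the motif matches named after the sequences.
Slco1a1: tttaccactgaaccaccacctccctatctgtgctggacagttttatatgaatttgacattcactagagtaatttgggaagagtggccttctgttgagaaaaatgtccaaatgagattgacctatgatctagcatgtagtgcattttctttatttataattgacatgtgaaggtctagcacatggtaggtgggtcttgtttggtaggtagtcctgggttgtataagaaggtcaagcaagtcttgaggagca
Slco1b2: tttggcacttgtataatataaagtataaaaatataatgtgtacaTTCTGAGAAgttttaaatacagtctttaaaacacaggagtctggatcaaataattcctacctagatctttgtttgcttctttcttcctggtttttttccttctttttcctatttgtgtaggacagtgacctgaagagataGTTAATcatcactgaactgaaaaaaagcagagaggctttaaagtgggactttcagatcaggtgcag
Abcc2: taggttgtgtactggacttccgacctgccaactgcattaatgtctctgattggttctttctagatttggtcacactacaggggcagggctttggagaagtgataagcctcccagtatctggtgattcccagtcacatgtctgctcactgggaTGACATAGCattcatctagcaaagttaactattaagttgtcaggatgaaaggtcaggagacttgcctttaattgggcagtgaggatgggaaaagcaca
Both strands of all 11 entries were searched for 4 motifs. The AhR core GCGTG was in none of these entries, against 28.157% of 32851 mouse promoters of the same length. The antioxidant response element core TGACNNNGC, read by Nrf2, was matched only in Abcc2, 98 bases before the start, against 10.161% of all promoters. After the sequences were read, the HNF1 core GTTAAT and the STAT5 site TTCNNNGAA were added. GTTAAT was matched only in Slco1b2, 66 bases before the start (6.432% of all promoters), and TTCNNNGAA, which reads the same on both strands, in Slco1b2 and in 1 of the 3 Slco2b1 entries (7.02% of all promoters). No match was found for any of the 4 motifs in the Slco1a1 window. A match describes letters in a window and says nothing of binding.

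Totals per library lay between 6514863 and 7944684 counts, but mitochondrial transcripts took 71.6% to 91.3% of them and left 569044 to 2132208 counts of nuclear genes. The 9 carriers together had 320 to 1381 counts in a library, so most values below rest on fewer than 100 counts. Levels are given as CPM, counts relative to library size, scaled with TMM factors over all 9 libraries, where 3 counts, the most that a count of 0 allows, amount to 0.246 to 0.731 CPM (counting error only). Hepatocyte markers (10 of 10 detected) summed to 13540 to 21124 CPM in Control, 11589 to 24921 CPM in DSS and 12616 to 15003 CPM in Indirubin, so hepatocyte transcripts were abundant in every library. Libraries Indirubin-2 and Indirubin-3 also carried 603 and 806 CPM of 8 acinar pancreas markers, against 0 to 16.6 CPM in the other libraries, and stood apart from Indirubin-1 in several results below. In bulk tissue, fewer cells of a type and less RNA per cell cannot be told apart.

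Slco1b2, the main liver-specific organic anion carrier, was the most abundant carrier per length in all 9 libraries. On the scale of CPM per kilobase of gene length, its level was 7.97 ± 4.22 (SD, n = 9), or 49.4% of the sum over the 9 genes. Slco1a1 followed with 2.43 ± 2.10, Slco2b1 with 1.54 ± 0.67 and Abcc3 with 1.37 ± 0.54. Slc47a1 (0.94 ± 0.88), Abcc2 (0.86 ± 0.23), Slco1a4 (0.55 ± 0.50) and Abcg2 (0.44 ± 0.29) came next, and Abcb1a was at the bottom with 0.023 ± 0.042. From Slco1a1 down to Abcg2, each neighbour in this order differed from the next by less than the larger SD of the pair. The deposited FPKM values gave the same rank for all 9 genes. Within the groups, Slco1b2 was first and Abcb1a last in each, Slco1a1 ranked 2 in Control and 3 in DSS and in Indirubin, and Abcc3 ranked 2 in Indirubin.

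**Figure D1:**
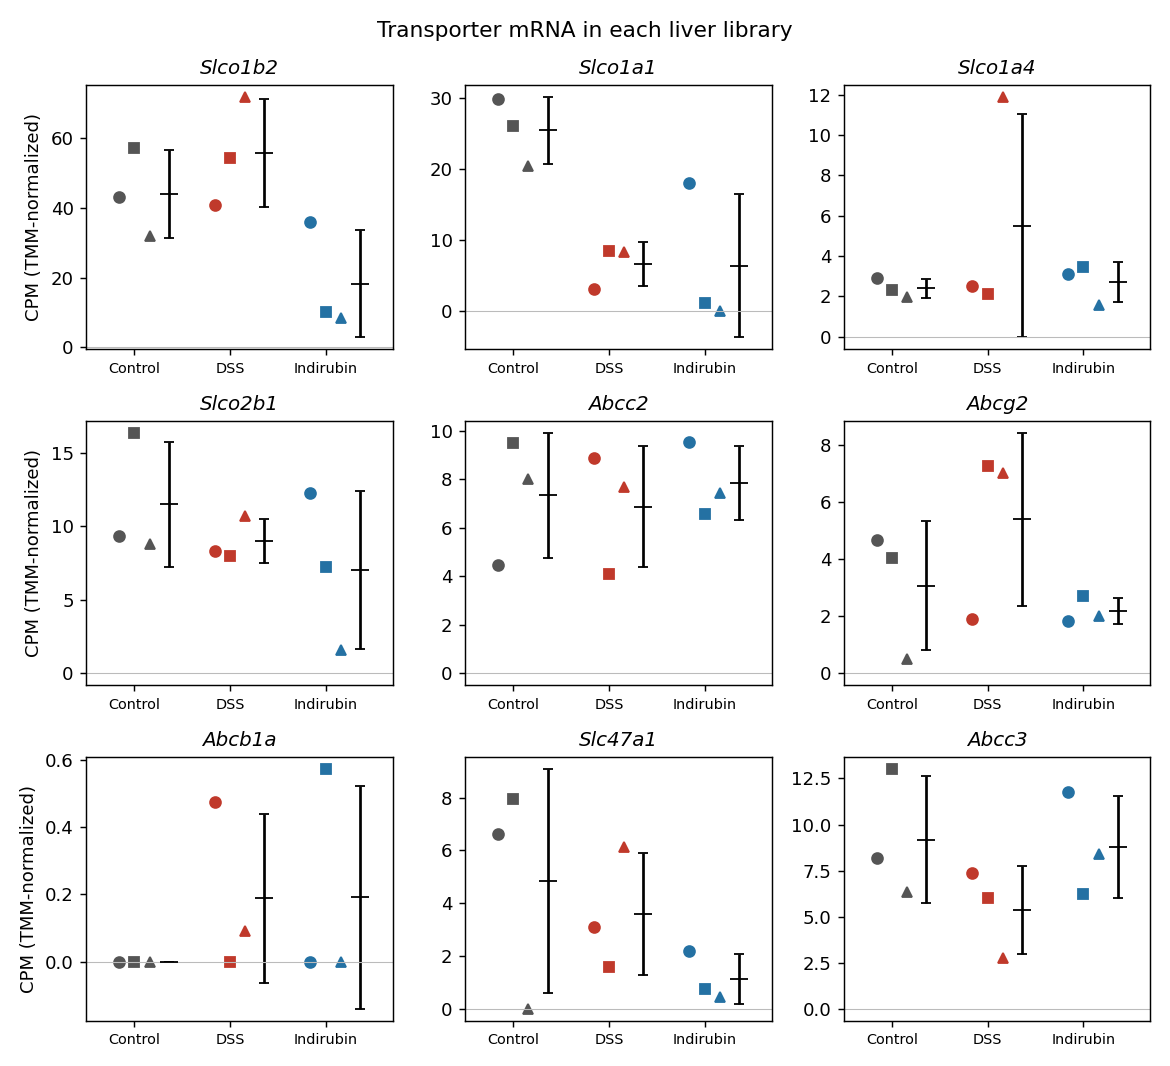
Level of each carrier in CPM (linear axis, own scale in each panel) in the 9 liver libraries, with circles, squares and triangles for mice 1, 2 and 3 of a group and the black bar for mean ± SD (n = 3). Slco1a1 is above 20 CPM in every Control library and below 9 CPM in every DSS library, and Slco1b2 lies lower in all Indirubin libraries than in any DSS library.

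Differences between groups were tested with edgeR's quasi-likelihood test over all genes that passed a filter on low counts, and adjusted p-values are Benjamini-Hochberg values over all of those. Of the 9 carriers 8 were tested in each comparison and Abcb1a was not. At an adjusted p under 0.05, the test called 0 of the 8 for DSS against Control, where 0.708% of 7482 genes were called, 0 of 8 for Indirubin against DSS, where 0% of 9117 genes were called, and 0 of 8 for Indirubin against Control, where 0.236% of 8059 genes were called. The DESeq2 Wald test called Slco1a1 (lower) for DSS against Control and 0 carriers in the other comparisons, where it gave no p for Slco1a1 in Indirubin against DSS. At an unadjusted p under 0.05, 1 of 8 was lower in each comparison and 0 were higher. This was Slco1a1 for DSS against Control, where 4.05% of all tested genes were lower and 3.48% higher at this limit, Slco1b2 for Indirubin against DSS (3.22% lower and 4.45% higher) and Slco1b2 for Indirubin against Control (6.38% lower and 7.45% higher). The median log2 fold change of the 8 was -0.18, -0.70 and -0.59 in the 3 comparisons, beside 0.01, 0.15 and 0.13 over all tested genes. These comparisons share libraries with each other, so their values are set side by side and not counted as separate evidence.

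**Figure D2:**
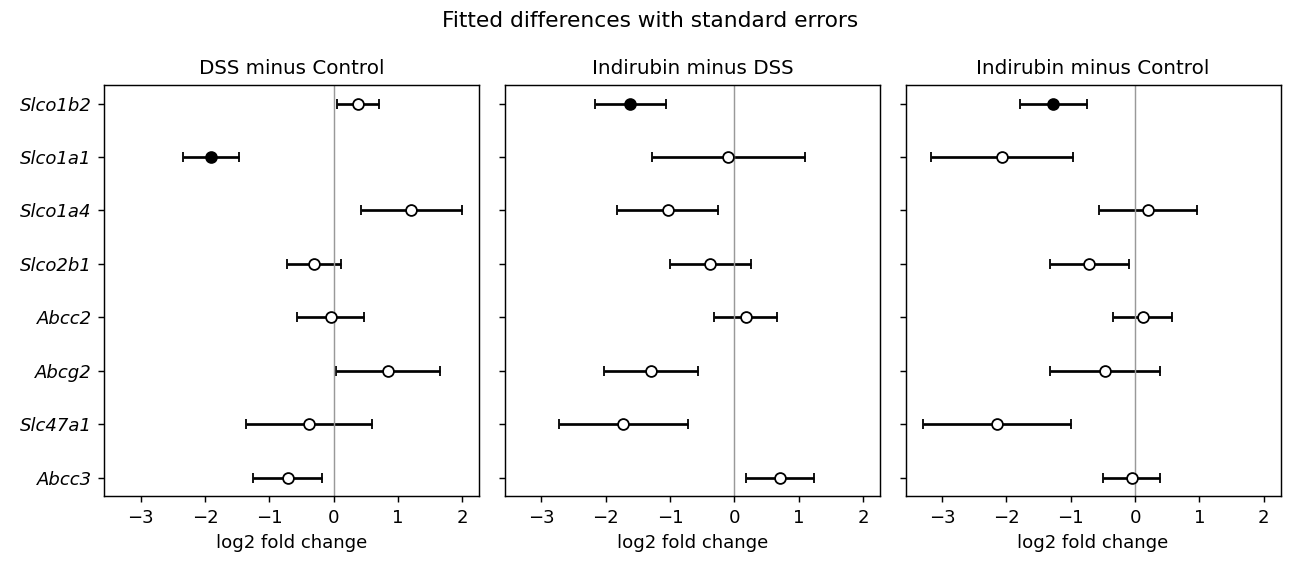
Fitted log2 fold change (circles) with its standard error (bars) for the 8 tested carriers in the 3 comparisons, 3 libraries against 3. Filled circles have an unadjusted p under 0.05: Slco1a1 at -1.91 for DSS minus Control, and Slco1b2 at -1.62 for Indirubin minus DSS and -1.27 for Indirubin minus Control.

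Slco1a1 carries bile acids and sulfated steroids and is known as a carrier of male mouse liver. It was lower in DSS livers than in Control livers by a fold of 3.75. The Control libraries had 29.8, 26.1 and 20.5 CPM (153, 148 and 84 counts), the DSS libraries 3.08, 8.51 and 8.32 CPM (26, 48 and 91 counts). Every DSS value lay under every Control value, and among all tested genes 8.54% were lower in this way without overlap. The log2 fold change was -1.91 ± 0.43 (SE), with an unadjusted p of 0.000632 and an adjusted p of 0.0775 in edgeR's quasi-likelihood test, the 61st smallest p of 7482. The adjusted p moved to the other side of 0.05 in 3 alternatives, at 0.00956 with no filter on low counts, 0.0123 where each library needed at least 10 counts, and 0.00355 in the DESeq2 Wald test. In the fit of all 9 libraries together the unadjusted edgeR p was 0.0571.

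The indirubin-treated livers were split for Slco1a1. Indirubin-1 had 18.0 CPM (98 counts), above all DSS libraries and under all Control libraries, Indirubin-2 had 1.15 CPM (14 counts), and Indirubin-3 had no count, which allows up to 0.259 CPM. Against DSS the log2 fold change was -0.10 ± 1.19 (SE, edgeR's quasi-likelihood adjusted p = 0.992), and the SD of 10.1 CPM among the treated mice was larger than either group mean (6.38 CPM in Indirubin, 6.64 CPM in DSS). Against Control it was -2.06 ± 1.10 (unadjusted p = 0.0853, adjusted p = 0.446 by the same test), and again no Indirubin value reached a Control value, as for 9.32% of all tested genes. Leaving out Indirubin-1 gave -3.60 against DSS (adjusted p = 0.273) and -5.52 against Control (adjusted p = 0.00271 in the same edgeR test). With Indirubin-1 as the only treated library, chosen after seeing the data, the value against DSS turned to 1.44, and that against Control was -0.51.

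Because Slco1a1 is known as a male-biased gene, a list of 12 other male-biased liver genes was read beside it, of which 11 were in the table and tested for DSS against Control. Of these, 3 (Cyp4a12b, Cyp2u1 and Susd4) passed the filter on low counts through the Control libraries alone, so their direction was set by the filter. The other 8 each had a lower fitted level in DSS, 6 at an unadjusted p under 0.05 (4.05% of all tested genes were lower at this limit) and 4 at an adjusted p under 0.05 in edgeR's quasi-likelihood test (0.495% of all tested genes). The 4 that fell were the fatty acid elongase Elovl3 (-3.37 ± 0.53, adjusted p = 0.0103), the glutathione transferase Gstp1 (-1.76 ± 0.29, adjusted p = 0.0120), the steroid reductase Hsd3b5 (-3.32 ± 0.55, adjusted p = 0.0142) and the urinary protein Mup20 (-1.52 ± 0.31, adjusted p = 0.0422), all by edgeR. For Indirubin against Control, 8 passed the filter through libraries of both groups and each had a lower fitted level, 6 at an unadjusted p under 0.05 (6.38% of all tested genes) and 0 at an adjusted one, where Cyp2d9, a testosterone hydroxylase, was at -1.98 (unadjusted p = 0.00148). For Indirubin against DSS 7 were tested, of which Cyp2u1 passed the filter through the Indirubin libraries alone, so its higher direction was set by the filter. The other 6 each had a lower fitted level, and 0 of them passed the unadjusted limit (3.22% of all tested genes were lower).

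The summed level of the 11 male-biased genes was 892 to 1011 CPM in Control, 231 to 318 CPM in DSS, 361 CPM in Indirubin-1, 54.0 CPM in Indirubin-2 and 86.0 CPM in Indirubin-3. Indirubin-1 was thus the highest treated library for the list as for Slco1a1. Of 12 female-biased genes 6 had no count in any library and 0 passed the filter. The Y-linked gene Ddx3y had counts in all 9 libraries, and Xist, made from the inactive X chromosome, had 8 counts in Indirubin-2 and none elsewhere. Whether the male-biased pattern plays a part in the Slco1a1 values was not tested.

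**Figure D3:**
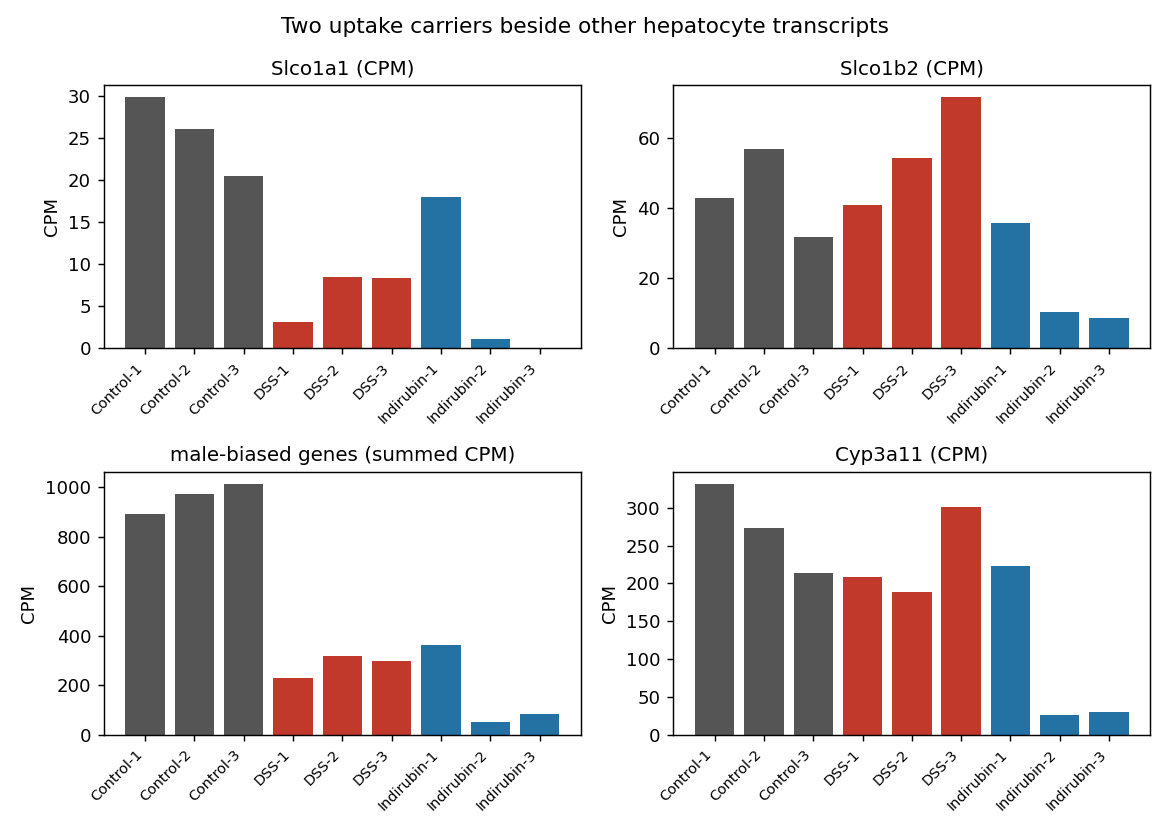
Level in CPM (linear axes from 0) by library of Slco1a1 and of the sum over 11 other male-biased genes (left), and of Slco1b2 and Cyp3a11 (right), with grey, red and blue for Control, DSS and Indirubin. Slco1a1 and the male-biased sum are highest in the Control libraries, while Slco1b2 and Cyp3a11 are lowest in Indirubin-2 and Indirubin-3.

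Slco1b2, which takes up statins, bilirubin conjugates and bile acids, was lower in indirubin-treated colitis livers than in DSS livers by a fold of 3.07. The DSS libraries had 40.9, 54.2 and 71.7 CPM (345, 306 and 784 counts) and the Indirubin libraries 35.8, 10.2 and 8.55 CPM (195, 125 and 99 counts). The groups did not overlap, as for 5.92% of all tested genes in this direction, and the gap was narrow for Indirubin-1. The log2 fold change was -1.62 ± 0.55 (SE), with an unadjusted p of 0.0121 and an adjusted p of 0.496 in edgeR's quasi-likelihood test. Control libraries had 43.0, 57.1 and 31.9 CPM, so Indirubin-1 was inside the Control range and the other treated livers were under it. Against Control the log2 fold change was -1.27 ± 0.53 (edgeR unadjusted p = 0.0327, adjusted p = 0.306), and DSS against Control gave 0.38 ± 0.32 (adjusted p = 0.963). The unadjusted p for Indirubin against Control was above 0.05 in 6 of 15 alternatives, and reached 0.506.

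The size of the Slco1b2 difference depended on Indirubin-1. Without that mouse the log2 fold change was -2.67 against DSS (edgeR adjusted p = 0.00739) and -2.33 against Control (adjusted p = 0.00324), and with it as the only treated mouse, a choice made after seeing the data, the values were -0.63 and -0.31. The unadjusted p for Indirubin against DSS was above 0.05 in 3 of 15 alternatives, among them the edgeR fits without DSS-3 (0.0570) and without Indirubin-2 (0.0553). Over all alternatives the adjusted edgeR or DESeq2 p ranged from 0.00739 to 1.00. Indirubin-2 and Indirubin-3, where Slco1b2 was lowest, were also the libraries with the most acinar pancreas transcripts, and the only ones with counts of Cyp1a1, the classic AhR target, named after its values were seen (262 and 417 counts, with 0 in each of the other 7 libraries). They also differed from Indirubin-1 in mitochondrial share (71.6% and 77.2% of counts against 89.5%), nuclear counts (1910420 and 1771035 against 701804) and TMM factor (1.84 and 1.51 against 0.819), which holds for the Slco1a1 split as well. DSS-3 was near Indirubin-2 and Indirubin-3 in these measures (72.4%, 2132208 and 1.42). It had the highest Slco1b2 level of the 9 libraries (71.7 CPM) and 8.32 CPM of Slco1a1. The hepatocyte markers of Indirubin-2 and Indirubin-3 did not move one way against Indirubin-1. The summed levels were 13439 and 15003 CPM against 12616 CPM. Of the 10 markers, named after their values were seen, 5 were higher in both: Trf (6759 and 7290 against 2522 CPM), Tat (276 and 266 against 55.5 CPM), Apoa1, Cps1 and Hnf4a. The excess of Trf was larger than that of the sums. The 4 lower in both were Alb (4568 and 5632 against 7795 CPM), Ttr (164 and 199 against 480 CPM), Serpina1a (299 and 181 against 369 CPM) and F2. The part of these in the Slco1b2 values was not tested.

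Slco2b1, a carrier of steroid sulfates and statins found in many tissues, did not separate the groups. It was at 9.34, 16.4 and 8.77 CPM in Control, 8.30, 7.97 and 10.7 CPM in DSS and 12.3, 7.21 and 1.56 CPM in Indirubin. The log2 fold changes were -0.31 ± 0.42 for DSS against Control, -0.37 ± 0.63 for Indirubin against DSS and -0.71 ± 0.61 for Indirubin against Control, with edgeR adjusted p-values from 0.680 to 1.00. Indirubin-3 was the lowest of the 9 libraries, and the groups overlapped in each comparison.

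Slco1a4, which carries digoxin and bile acids and is a known CAR and PXR target, had few counts in 8 libraries and 130 counts in DSS-3. Its level was 2.92, 2.29 and 1.95 CPM in Control, 2.49, 2.13 and 11.9 CPM in DSS and 3.12, 3.44 and 1.56 CPM in Indirubin. The fitted log2 fold change for DSS against Control, 1.21 ± 0.79 (edgeR adjusted p = 0.890), was 0.02 without DSS-3, and that for Indirubin against DSS went from -1.04 ± 0.79 to 0.22. Slco1a1 and Slco1a4 share 87 and 103 of their 50-base transcript windows with other genes, chiefly of their family (1.64% and 1.61% of all their windows in the GENCODE vM21 transcripts), and the related Slco1a5 and Slco1a6 had no count in any library. How reads that match several genes were counted is not given in the sources used here.

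The sum of the 4 uptake carriers, on the CPM per kilobase scale, was 12.1 to 19.6 in Control, 10.7 to 19.8 in DSS, and 13.2, 4.04 and 2.24 in Indirubin-1, Indirubin-2 and Indirubin-3. The makeup of the sum also differed. Slco1b2 made up 53.2% to 59.0% of it in Control and 73.6% to 77.8% in DSS, and Slco1a1 25.2% to 34.4% in Control and 5.48% to 11.3% in DSS. In the treated livers, Slco1a1 made up 25.8% in Indirubin-1, 5.38% in Indirubin-2 and 0% in Indirubin-3. Slco1b2 made up 54.9% in Indirubin-1, inside the Control range, 51.4% in Indirubin-2, under the ranges of both other groups, and 77.5% in Indirubin-3, inside the DSS range. The treated livers thus shared no single makeup.

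**Figure D4:**
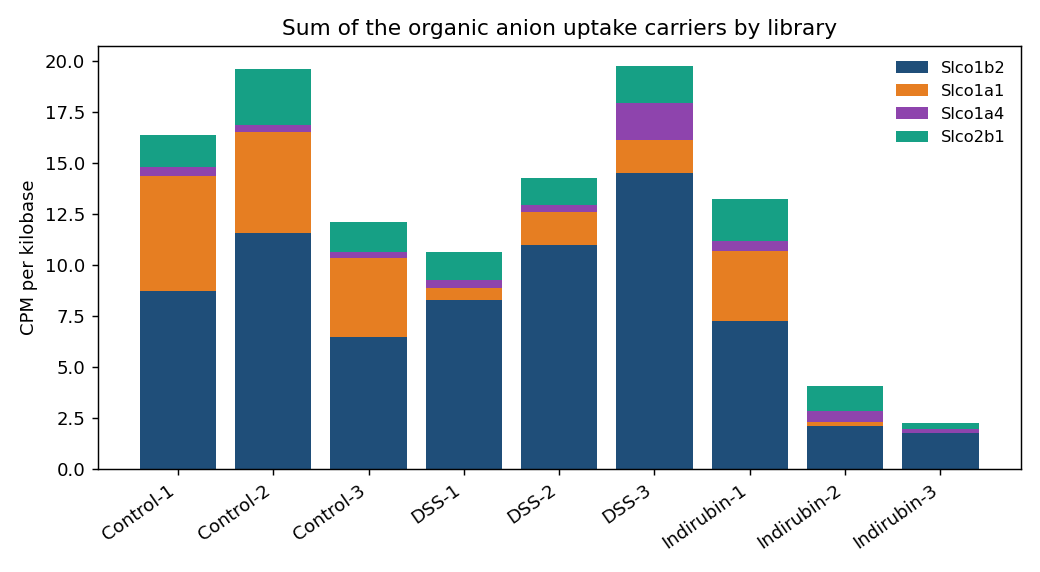
Sum of the organic anion uptake carriers in each liver library (bar height, CPM per kilobase of gene length, axis from 0), split into Slco1b2, Slco1a1, Slco1a4 and Slco2b1. The DSS bars (10.7 to 19.8) overlap the Control bars (12.1 to 19.6) in height, Slco1a1 is 5.48% to 11.3% of each DSS bar, and the bars of Indirubin-2 and Indirubin-3 are the lowest, at 4.04 and 2.24.

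Among the export carriers, Abcc2, the canalicular pump for bilirubin glucuronides and glutathione conjugates, was the most even of the tested genes. It had 4.47, 9.51 and 8.04 CPM in Control, 8.89, 4.08 and 7.68 CPM in DSS and 9.55, 6.56 and 7.43 CPM in Indirubin. The fitted log2 fold changes were -0.05 ± 0.52, 0.18 ± 0.49 and 0.12 ± 0.45 for DSS against Control, Indirubin against DSS and Indirubin against Control, with edgeR adjusted p-values from 0.949 to 1.00. All 3 groups overlapped. With standard errors near 0.5 on the log2 scale, a change of that size, or one well above it, could have been missed in these libraries.

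Abcc3, the blood-facing pump for glucuronides, was at 8.17, 13.0 and 6.33 CPM in Control, 7.35, 6.03 and 2.74 CPM in DSS and 11.8, 6.23 and 8.38 CPM in Indirubin. Its fitted level was lower in DSS than in Control (-0.71 ± 0.54, edgeR adjusted p = 0.925) and higher in Indirubin than in DSS (0.71 ± 0.53, adjusted p = 0.885), neither past the test, and Indirubin against Control gave -0.05 ± 0.44. The ratio of Abcc3 to Abcc2, on the CPM per kilobase scale, was 1.18 to 2.73 in Control, 0.535 to 2.21 in DSS and 1.42 to 1.84 in Indirubin. The 3 ranges overlapped.

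Abcg2, a pump for sulfates and urate in the canalicular membrane, had 4.67, 4.05 and 0.487 CPM in Control, 1.90, 7.27 and 7.04 CPM in DSS and 1.84, 2.70 and 1.99 CPM in Indirubin. DSS-1 lay within the Indirubin values while DSS-2 and DSS-3 were above them. The log2 fold change for Indirubin against DSS was -1.30 ± 0.73 (edgeR unadjusted p = 0.0988, adjusted p = 0.764), that for DSS against Control 0.84 ± 0.81 and that for Indirubin against Control -0.46 ± 0.85. In Control-3 only 2 counts stood behind the value.

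Slc47a1 encodes the exchanger that releases metformin and other organic cations into bile. It had 6.62, 7.93 and 0 CPM in Control (34, 45 and 0 counts), 3.08, 1.59 and 6.12 CPM in DSS (26, 9 and 67 counts) and 2.20, 0.737 and 0.432 CPM in Indirubin (12, 9 and 5 counts). The fitted log2 fold changes were -1.72 ± 1.01 for Indirubin against DSS (edgeR unadjusted p = 0.112, adjusted p = 0.784), -2.15 ± 1.15 for Indirubin against Control (unadjusted p = 0.0866, adjusted p = 0.446) and -0.38 ± 0.98 for DSS against Control. The groups overlapped in each comparison, and the count of 0 in Control-3, which allows up to 0.731 CPM, stood against 34 and 45 in the other Control mice.

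Abcb1a, which encodes a P-glycoprotein, was close to absent from these libraries. It had 0 counts in all Control libraries, 4, 0 and 1 in DSS and 0, 7 and 0 in Indirubin, 12 counts below the filter in each comparison, so no fold is given. Its transcripts share 17.6% of their 50-base windows with other genes, chiefly the sister gene Abcb1b and Abcb4, which adds uncertainty to so few counts. Abcb1b had 0, 6 and 0 counts in Control, 0, 0 and 0 in DSS and 5, 27 and 18 in Indirubin. These counts were picked out after they were seen, and Abcb1b was not tested.

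The other carriers of the 2 classes were read from lists of 14 uptake and 14 export genes. Of the uptake genes 10 were tested for Indirubin against DSS, 2 were lower at an unadjusted p under 0.05 (3.22% of all tested genes) and 0 higher (4.45%), and the median log2 fold change was -0.64. Slc22a30, an organic anion carrier, was at -2.53 ± 1.10 (edgeR adjusted p = 0.628). For Indirubin against Control 9 were tested and 4 were lower at that limit (6.38% of all tested genes), among them Slc10a1, the sodium-dependent bile acid carrier (-1.04 ± 0.38), and the nucleoside carrier Slc29a1 (-0.96 ± 0.41), with 0 at an adjusted p under 0.05. For DSS against Control 0 of 10 passed an unadjusted p under 0.05, and the median was -0.28.

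Of the export genes, 6 were tested in each comparison and 0 passed the adjusted limit. For DSS against Control 2 were lower at an unadjusted p under 0.05 (4.05% of all tested genes). Abcb4, the phospholipid floppase of bile, was at -0.90 ± 0.39 with no overlap between the groups, as for 8.54% of all tested genes in this direction. Abcg5, a subunit of the sterol pump, was at -3.08 ± 1.22 on few counts. Abcb4 was at 19.1, 14.8 and 11.7 CPM in Control, 8.18, 7.62 and 7.86 CPM in DSS and 6.06, 7.95 and 6.22 CPM in Indirubin. For Indirubin against Control 2 were lower (6.38% of all tested genes), Abcb4 (-1.14 ± 0.39) and the bile salt export pump Abcb11 (-1.53 ± 0.63), and Abcb11 was at 19.6, 5.08 and 3.72 CPM in the Indirubin libraries, lowest in Indirubin-2 and Indirubin-3 as Slco1b2 was. For Indirubin against DSS, Abcg5 passed the filter through the Indirubin libraries alone, and of the other 5 genes 2 had a higher and 3 a lower fitted level, with 0 past the unadjusted limit.

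The known regulators are given beside the shares of all tested genes at the unadjusted limit, which were 3.48% higher and 4.05% lower for DSS against Control, 4.45% and 3.22% for Indirubin against DSS, and 7.45% and 6.38% for Indirubin against Control. Of 16 regulators 15 were tested for DSS against Control, and 1, the bile-acid-induced corepressor Nr0b2 (SHP), was higher at an unadjusted p under 0.05 (1.82 ± 0.69, edgeR adjusted p = 0.477). It was at 4.47, 0.881 and 1.46 CPM in Control, 5.22, 8.15 and 10.5 CPM in DSS and 1.47, 5.08 and 1.99 CPM in Indirubin, and for Indirubin against DSS (16 tested) it was the 1 regulator lower at that limit (-1.46 ± 0.63, adjusted p = 0.624). For Indirubin against Control 0 of 15 passed the limit. The FXR gene Nr1h4 was at -0.07 ± 0.52 for DSS against Control and 0.38 ± 0.49 for Indirubin against DSS. The 6 genes whose products hold carriers in the membrane, among them Pdzk1, the scaffold that binds Slco1a1, gave 0 of 6 at an unadjusted p under 0.05 in each comparison, and Pdzk1 was at -0.70 ± 0.91 for Indirubin against DSS.

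Enzymes that share regulators with the carriers gave the following values. Of 12 CAR and PXR target enzymes 9 were tested for Indirubin against DSS, 8 with a lower fitted level, 2 of these at an unadjusted p under 0.05 (3.22% of all tested genes) and 0 at an adjusted one, with a median log2 fold change of -1.01. Ces2a, a carboxylesterase, was at 93.2, 73.4 and 130 CPM in DSS and 53.1, 6.39 and 6.22 CPM in Indirubin (-2.18 ± 0.74, edgeR adjusted p = 0.496), and Aldh1a1, which makes retinoic acid, was at -1.07 ± 0.47. Cyp3a11, the main drug-oxidizing P450 and named here after its values were seen, was at 209, 188 and 300 CPM in DSS and 223, 26.9 and 30.2 CPM in Indirubin, with Indirubin-2 and Indirubin-3 lowest. For DSS against Control 0 of 9 passed the unadjusted limit, and for Indirubin against Control 3 were lower (6.38% of all tested genes) and 1, the P450 reductase Por (1.73 ± 0.71), was higher (7.45%).

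Of 8 AhR target genes 2 were tested for Indirubin against DSS, of which Cyp1b1 passed the filter through the Indirubin libraries alone and is given no count. Cyp1a2 was at 9.48, 20.9 and 35.3 CPM in DSS and 86.5, 51.4 and 65.9 CPM in Indirubin (1.63 ± 0.49, edgeR unadjusted p = 0.00579, adjusted p = 0.436), with every treated mouse above every DSS mouse, as for 10.5% of all tested genes, Indirubin-1 included. Of 10 Nrf2 target genes 7 were tested for Indirubin against DSS, 4 with a higher and 3 with a lower fitted level. At an unadjusted p under 0.05, 1 was higher (4.45% of all tested genes) and 0 lower (3.22%). This was Hmox1, heme oxygenase (1.79 ± 0.46, edgeR adjusted p = 0.433), at 13.2, 33.9 and 34.4 CPM against 6.91 to 9.23 CPM, while Gclc, of glutathione synthesis, was at -0.99 ± 0.59 and the glutathione transferase Gstm3 at -0.98 ± 0.71. Against Control, Hmox1 was higher (1.06 ± 0.42) and Gclc lower (-1.61 ± 0.55) at the unadjusted limit. For Indirubin against DSS, Abcc2 and Abcc3, known targets of Nrf2, were at 0.18 and 0.71.

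Other cell types were read through their markers. Cholangiocyte markers, which bear on carriers also made in bile ducts, summed to 5.25 to 7.31 CPM in Control, 8.89 to 13.3 CPM in DSS and 6.31 to 9.59 CPM in Indirubin, with Cftr at 0 in all libraries. These sums rest on 27 to 117 counts. Of the 7 markers only Spp1, named after its values were seen, was tested for DSS against Control. It was at 3.11, 2.64 and 4.87 CPM in Control and at 5.10, 11.9 and 6.67 CPM in DSS, most of each DSS sum. Markers of Kupffer cells and macrophages (10 of 10 tested) summed to 121 to 195 CPM in Control, 158 to 183 CPM in DSS and 202 to 263 CPM in Indirubin, and neutrophil markers (2 of 7 tested, Cxcr2 at 0) to 1.17 to 3.17, 11.5 to 19.8 and 24.4 to 243 CPM. Of the 10 macrophage markers, 6 had a higher and 4 a lower fitted level for DSS against Control. The numbers were 7 and 3 for Indirubin against DSS, and 8 and 2 for Indirubin against Control. At an unadjusted p under 0.05, 2, 3 and 3 were higher in these comparisons (3.48%, 4.45% and 7.45% of all tested genes) and 0 lower. For Indirubin against DSS 0 passed the adjusted limit. In each comparison with Control 1 passed it, beside 0.708% and 0.236% of all tested genes in either direction. This macrophage receptor, Marco, was higher at an edgeR adjusted p under 0.05 for DSS (2.43 ± 0.50, adjusted p = 0.0444) and for Indirubin against Control (3.82 ± 0.68, adjusted p = 0.0467), as was the neutrophil gene S100a9 for Indirubin against Control (5.12 ± 0.81, adjusted p = 0.0288), while S100a8, with 4, 6 and 1 counts in Control, passed the filter through the other group alone. Sinusoidal endothelial sums (52.1 to 95.8, 58.3 to 66.6 and 55.3 to 118 CPM) and stellate cell sums (98.4 to 170, 61.2 to 97.8 and 89.4 to 176 CPM) overlapped in part. Pericentral hepatocyte markers summed to 373 to 514 CPM in Control, 400 to 826 CPM in DSS and 241 to 577 CPM in Indirubin, and periportal markers to 541 to 791, 400 to 696 and 545 to 850 CPM. The part of these in the carrier values was not tested.

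For the 4 carriers with at least 10 counts in every library, the genes most like them were taken as those with the smallest mean absolute difference of centred log2 CPM over the 9 libraries, among 3074 genes. Slco1b2 was closest to the glucuronosyltransferase Ugt2b34 (a difference of 0.162 on the log2 scale, against its own mean deviation of 0.790) and to the predicted gene Gm44250 (0.205). Slco2b1 was closest to the P450 Cyp2c37 (0.172) and to Ppp1r3b, a glycogen-targeting phosphatase subunit (0.192). Abcc2 was closest to the mitochondrial hydratase Echs1 (0.137) and to Oaz2 (0.145), and Abcc3 to Marf1 (0.205) and Eprs (0.241). These are descriptions of likeness over 9 libraries that share depth and group, with no test.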

How the data were processed

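RNA was extracted by the authors with the RNeasy Plus Micro Kit, 400 ng per library was sequenced on a DNBSEQ instrument, and reads were aligned to the mouse genome (GRCm39 per the labels). The aligner, the counting program and the annotation are not given in the sources used here. The authors deposited whole-number read counts per gene without normalization, and FPKM values made per kilobase of gene length and a library size other than the total count. The FPKM served only to check the order of levels. Deposited fold changes and p-values of the authors' own comparisons, and 3 gene lists without values per mouse, were not used. No library was a copy of another.

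The quasi-likelihood test of edgeR 4.0.16 (R 4.3.3) was run after TMM scaling and filterByExpr (default minimum count 10, default minimum total 15) on the 6 libraries of each comparison, with Benjamini-Hochberg adjustment over all genes tested. The scripts were tested on simulated data. SE is the log2 fold change divided by the root of F. CPM were computed over all 9 libraries. The labels number the libraries without saying that each is a separate mouse, so p-values measure only the spread between these samples, which may be technical. The members and gene lists were chosen with earlier results of these data known. Named from each other list were genes at an adjusted p under 0.05 in any comparison and otherwise up to 2 with the smallest p each way per comparison, any exception being marked in the text; marker lists of cell types are given as sums apart from genes at an adjusted p under 0.05. List genes that passed the filter through 1 group alone are set apart. In the lists, Nherf1 was matched by synonym, and 1 male-biased gene was not matched. Alternatives were DESeq2 1.42.0 size factors and Wald test, library size alone, no mitochondrial genes, no filter, at least 10 counts in every library, a single fit of all 9 libraries, a block for the replicate number, and each library left out. Sequences came from RefSeq, transcripts from GENCODE. Protein sequences were not used here, and some list genes are not reported here. Figures were drawn with matplotlib 3.10.9.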

Additional observations from a re-analysis of the deposited data

How the results depend on the processing

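Of 342 refits of a carrier in a comparison, 289 kept the direction and the side of an unadjusted p of 0.05, 10 lost it, 15 gained it and 28 turned the direction. Scaling by library size alone moved the median of all genes to 0.70, 0.43 and 1.10 (DSS against Control, Indirubin against DSS, Indirubin against Control) and turned Slco2b1 (0.38), Abcc2 (0.68) and Slc47a1 (0.36) for DSS against Control and Slco2b1 (0.10), Abcc3 (0.81) and Abcg2 (0.52) for Indirubin against Control. Relative to that median these 6 values kept the direction they had with TMM (-0.32, -0.02, -0.34, -1.01, -0.30 and -0.59), Abcc2 was at -0.07 for Indirubin against DSS and for Indirubin against Control, Slco1a1 was at -1.93 for DSS against Control and Slco1b2 at -2.09 for Indirubin against DSS. Under this scaling 2 carriers were higher for DSS against Control and 0 lower for Indirubin against Control at an unadjusted p under 0.05, and over all genes the adjusted calls were 14 higher and 5 lower (16 and 37 with TMM), 2 and 0 (0 and 0), and 249 and 17 (5 and 14). At least 10 counts in every library turned Abcc3 to 0.041 for Indirubin against Control. The cause was not tested.

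At an adjusted p under 0.05 for DSS against Control, 1 carrier was lower with no filter, where every library needed at least 10 counts, and in the DESeq2 Wald test, and 0 at an unadjusted p with all 9 libraries in one fit. For Indirubin against DSS, at least 10 counts gave 2 lower carriers at an unadjusted p. For Indirubin against Control, no filter gave 1 adjusted and 3 unadjusted, and all 9 libraries in one fit 2 unadjusted. The DESeq2 Wald test gave no p for Slco1a1 in Indirubin against DSS. Over all genes, no filter called 43 higher and 82 lower, 104 and 52, and 192 and 187 in the 3 comparisons at an adjusted p under 0.05, and the Wald test 55 and 88, 53 and 27, and 146 and 170.

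Replicate numbers did not pair the mice (correlations of same-numbered mice from -0.02 to 0.02). With the replicate number as a block, 2 carriers in place of 1 were lower at an unadjusted p for Indirubin against Control, where Slco1a1 was at -3.79 (adjusted p = 0.147).

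Leaving out each library in turn, the fitted value ranged for DSS against Control from -0.34 to 0.18 (Abcc2) and -0.99 to 0.13 (Slc47a1), for Indirubin against DSS from -3.60 to 0.51 (Slco1a1), -1.50 to 0.22 (Slco1a4), -1.14 to 0.11 (Slco2b1) and -0.16 to 0.30 (Abcc2), and for Indirubin against Control from -0.042 to 0.48 (Slco1a4), -0.18 to 0.32 (Abcc2) and -0.44 to 0.26 (Abcc3). The number of lower carriers ranged from 0 to 1 adjusted and 0 to 3 unadjusted for Indirubin against DSS, and from 0 to 2 and 0 to 4 for Indirubin against Control, highest without Indirubin-1. With Indirubin-1 as the only treated library, an alternative chosen after seeing the data in which the lone library is assumed to vary like the others, 0 carriers were lower in either comparison, Slco1a1 (1.44) and Slco2b1 (0.45) turned against DSS, and Slco2b1 (0.087) and Abcc3 (0.34) against Control. Abcb1a, Slc47a1, Abcg2 and Slco1a4 had the fewest counts over the 9 libraries, and their values are the least precise.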
